A study of Mus musculus with 42 samples.

Results

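Presentation of peptides on MHC class I was followed through 9 genes in sorted mouse microglia: the heavy chains H2-D1 and H2-K1, the light chain B2m, the peptide transporter subunits Tap1 and Tap2, the loading factor Tapbp, the immunoproteasome subunits Psmb8 and Psmb9, and the transactivator Nlrc5. The genes were chosen by name as components of the pathway. All 9 were found in both count tables, among 53546 gene rows for cortex and hippocampus and 24421 gene rows for whole brain, and all 9 passed the filter on low counts in every fit.

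Nearly all nucleated cells display fragments of their own proteins on MHC class I. The proteasome cuts the proteins, and its immunoproteasome form exchanges catalytic subunits for Psmb8 and Psmb9. The Tap1 and Tap2 heterodimer pumps the peptides into the endoplasmic reticulum, where Tapbp (tapasin) holds an empty heavy chain beside the transporter until a peptide binds. A heavy chain reaches the cell surface only when paired with B2m, and CD8 T cells and natural killer cells read the complex. Nlrc5 drives transcription of these genes through a conserved promoter module, and interferons raise most of them. Microglia, the resident macrophages of the brain, express the pathway at rest and increase it when activated.

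The series holds 42 bulk RNA-seq libraries in 11 groups, each from CD11b+CD45lo microglia isolated by density gradient and cell sorting from C57BL/6 mice. Mice were specific-pathogen-free (SPF), germ-free (GF, raised without microbes), or germ-free with acetate, a short-chain fatty acid made by gut bacteria, in the drinking water (GF plus acetate). Whole-brain microglia came from wild-type mice aged 6 to 12 weeks per the labels and 8 weeks per the titles, with 3 SPF and 5 GF libraries. Cortical microglia came from wild-type mice aged 16 weeks, with 4 libraries in each of SPF, GF and GF plus acetate. Hippocampal microglia of the same age came from wild-type mice (4 SPF, 3 GF, 4 GF plus acetate) and from 5xFAD mice (4 SPF, 3 GF, 4 GF plus acetate). Mice of the 5xFAD line carry mutant human transgenes under the neuronal Thy1 promoter and deposit amyloid in the brain. Per the labels, GF wild-type and 5xFAD mice received acetate for 8 weeks. A GF group treated for 4 weeks is also mentioned, without saying which libraries it holds. Hippocampus and cortex were paired for 11 wild-type animals by the animal number in the titles. For the 4 SPF pairs that number is only 1 to 4. Libraries came from separate animals or, for regions, from separate tissue of one animal, so p-values measure the spread between these animals.

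Whole-brain libraries held 19329304 to 25366393 counts, cortical libraries 15790383 to 23860490 and hippocampal libraries 5743891 to 22532410. Wild-type hippocampal libraries GFA518 and GF530 had few genes detected for their depth, 16607 at 21746850 counts and 17750 at 16468507 counts. The other wild-type acetate libraries of hippocampus had 19142 to 19483 genes detected. The 9 microglial marker genes fixed as a check of the sort summed to between 39880 and 80190 CPM (counts per megaread of TMM-scaled library size) in every library. Markers of T and natural killer cells summed to at most 1.805 CPM, those of monocytes to at most 33.39 CPM and those of border-associated macrophages to at most 35.57 CPM. The astrocyte list summed to between 192.8 and 472.9 CPM. The B-cell list reached 792.7 CPM, nearly all of it Ighm (group means 408.4 to 634.6 CPM in cortex and hippocampus), while Ms4a1 and Pax5 had group means of at most 0.0421 CPM. Neutrophil markers reached 257.7 CPM in 1 SPF 5xFAD hippocampal library and 226.4 CPM in 1 GF wild-type hippocampal library. In bulk samples, fewer cells of a type and less RNA per cell cannot be told apart.

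The library labelled 5xFAD SPF2152 stood apart from the other 10 5xFAD libraries. Its Apoe was 438.1 CPM and its Cst7 13.22 CPM. Wild-type hippocampal libraries ranged from 241.8 to 743.6 CPM for Apoe and from 4.266 to 22.41 CPM for Cst7, whereas the other 5xFAD libraries ranged from 3136 to 7474 CPM and from 351 to 789.5 CPM. Both genes are markers of the plaque-associated microglial state. Mouse App, at 189.9 CPM, fell in both ranges and is no check of the genotype. The library was kept under its label, and member results that rest on it are given with and without it.

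The heavy-chain genes and B2m carry the conserved class I promoter module, printed here because all 3 of these genes were called higher in 5xFAD mice given acetate. In lower case are bases upstream of the transcription start from RefSeq (GRCm38.p6), written 5′ to 3′ on the gene's strand. Capitals mark, from left to right, a kappaB site (GGGATTCCC), an interferon regulatory factor core (AANNGAAA or its reverse complement), an X2 core (TGACG) and a Y box (ATTGG). The stretches lie at chr17:34000359-34000457 (minus strand) for H2-K1, at chr2:122147550-122147638 (plus strand) for B2m, and at chr17:35262924-35262951 and chr17:35262993-35263022 (plus strand) for H2-D1.
H2-K1: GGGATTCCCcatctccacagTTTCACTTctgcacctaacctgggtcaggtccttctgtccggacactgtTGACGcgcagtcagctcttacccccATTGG
H2-D1, distal stretch: GGGATTCCCcatctcctcagTTTCACTT
H2-D1, proximal stretch: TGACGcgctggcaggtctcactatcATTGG
B2m: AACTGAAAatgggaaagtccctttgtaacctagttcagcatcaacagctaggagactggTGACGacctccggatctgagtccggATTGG

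Over the whole 99-base stretch from kappaB site to Y box, H2-K1 and H2-D1 were identical at 88 bases (88.9%). B2m lacks the exact kappaB letters in its 250 bases upstream of the start. Among 27025 promoters in the reference, searched over 250 upstream bases on both strands, 0.311% hold the kappaB letters, 21.6% the interferon regulatory factor core, 17.9% the X2 core and 34.5% the Y box. An X2 core followed after 15 to 25 bases by a Y box occurs in 0.403% of promoters. H2-D1, H2-K1 and B2m each hold this pair, in each case with 20 bases between. The pair and its spacing were chosen after these promoters were seen. Tap1 and Psmb9 are transcribed in opposite directions from RefSeq starts 226 bases apart, and the 225 bases between hold 1 X2 core and 1 Y box. Tapbp holds 2 matches to the Y box letters and none to the other 3 motifs, and the search found no match in the Psmb8 window. The promoters of Tap2 and Nlrc5 are not in the reference table, so 7 of the 9 were read. A match of letters is a description of the sequence and shows no binding.

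Of the 9 genes, 7 lie in the MHC region of chromosome 17 (GRCm38, GENCODE M21): Tapbp at chr17:33915899-33929292, H2-K1 at chr17:33996017-34000347, Psmb9 at chr17:34181987-34187764, Tap1 at chr17:34187553-34197225, Psmb8 at chr17:34197721-34201454, Tap2 at chr17:34203527-34216321 and H2-D1 at chr17:35262730-35267499. B2m lies at chr2:122147686-122153083 and Nlrc5 at chr8:94434356-94527272. Counts cover all exons of a gene. The heavy chains resemble one another and the many nonclassical class I genes: 13.9% of the 50-base stretches in H2-D1 transcripts and 6.87% of those in H2-K1 transcripts also occur in transcripts of other genes, so a share of their reads cannot be placed with certainty. B2m, Psmb8, Psmb9 and Nlrc5 share no 50-base stretch with another gene. Psmb9 and Tap1 overlap by 212 bases on opposite strands. Gene models of other genes also overlap B2m (Patl2), Tapbp (Zbtb22), Nlrc5, Tap2 and Psmb8, and whether counting used the strand is not given in the sources used here.

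Expressed per length, B2m was by far the most abundant of the 9. In hippocampal microglia of wild-type SPF mice, B2m stood at 2365 ± 184.5 RPKM (CPM divided by exon length in kilobases; SD, n = 4), H2-D1 at 149.4 ± 14.91, Tapbp at 130.7 ± 3.513 and H2-K1 at 116.9 ± 14.11 RPKM. The proteasome and transporter subunits followed, with Psmb8 at 39.16 ± 5.468, Tap2 at 33.44 ± 6.534, Psmb9 at 17.33 ± 1.775 and Tap1 at 11.92 ± 2.389 RPKM. Nlrc5 was lowest at 1.135 ± 0.7053 RPKM. In that order H2-D1, Tapbp and H2-K1 differed by little more than their SDs, as did Psmb8 and Tap2. The order of B2m above the heavy chains and of Nlrc5 at the bottom was the same in 5xFAD mice given acetate, where B2m reached 4177 ± 819.8, H2-D1 449.4 ± 113.6, H2-K1 208.7 ± 34.55 and Nlrc5 3.661 ± 1.687 RPKM (SD, n = 4).

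**Figure D1:**
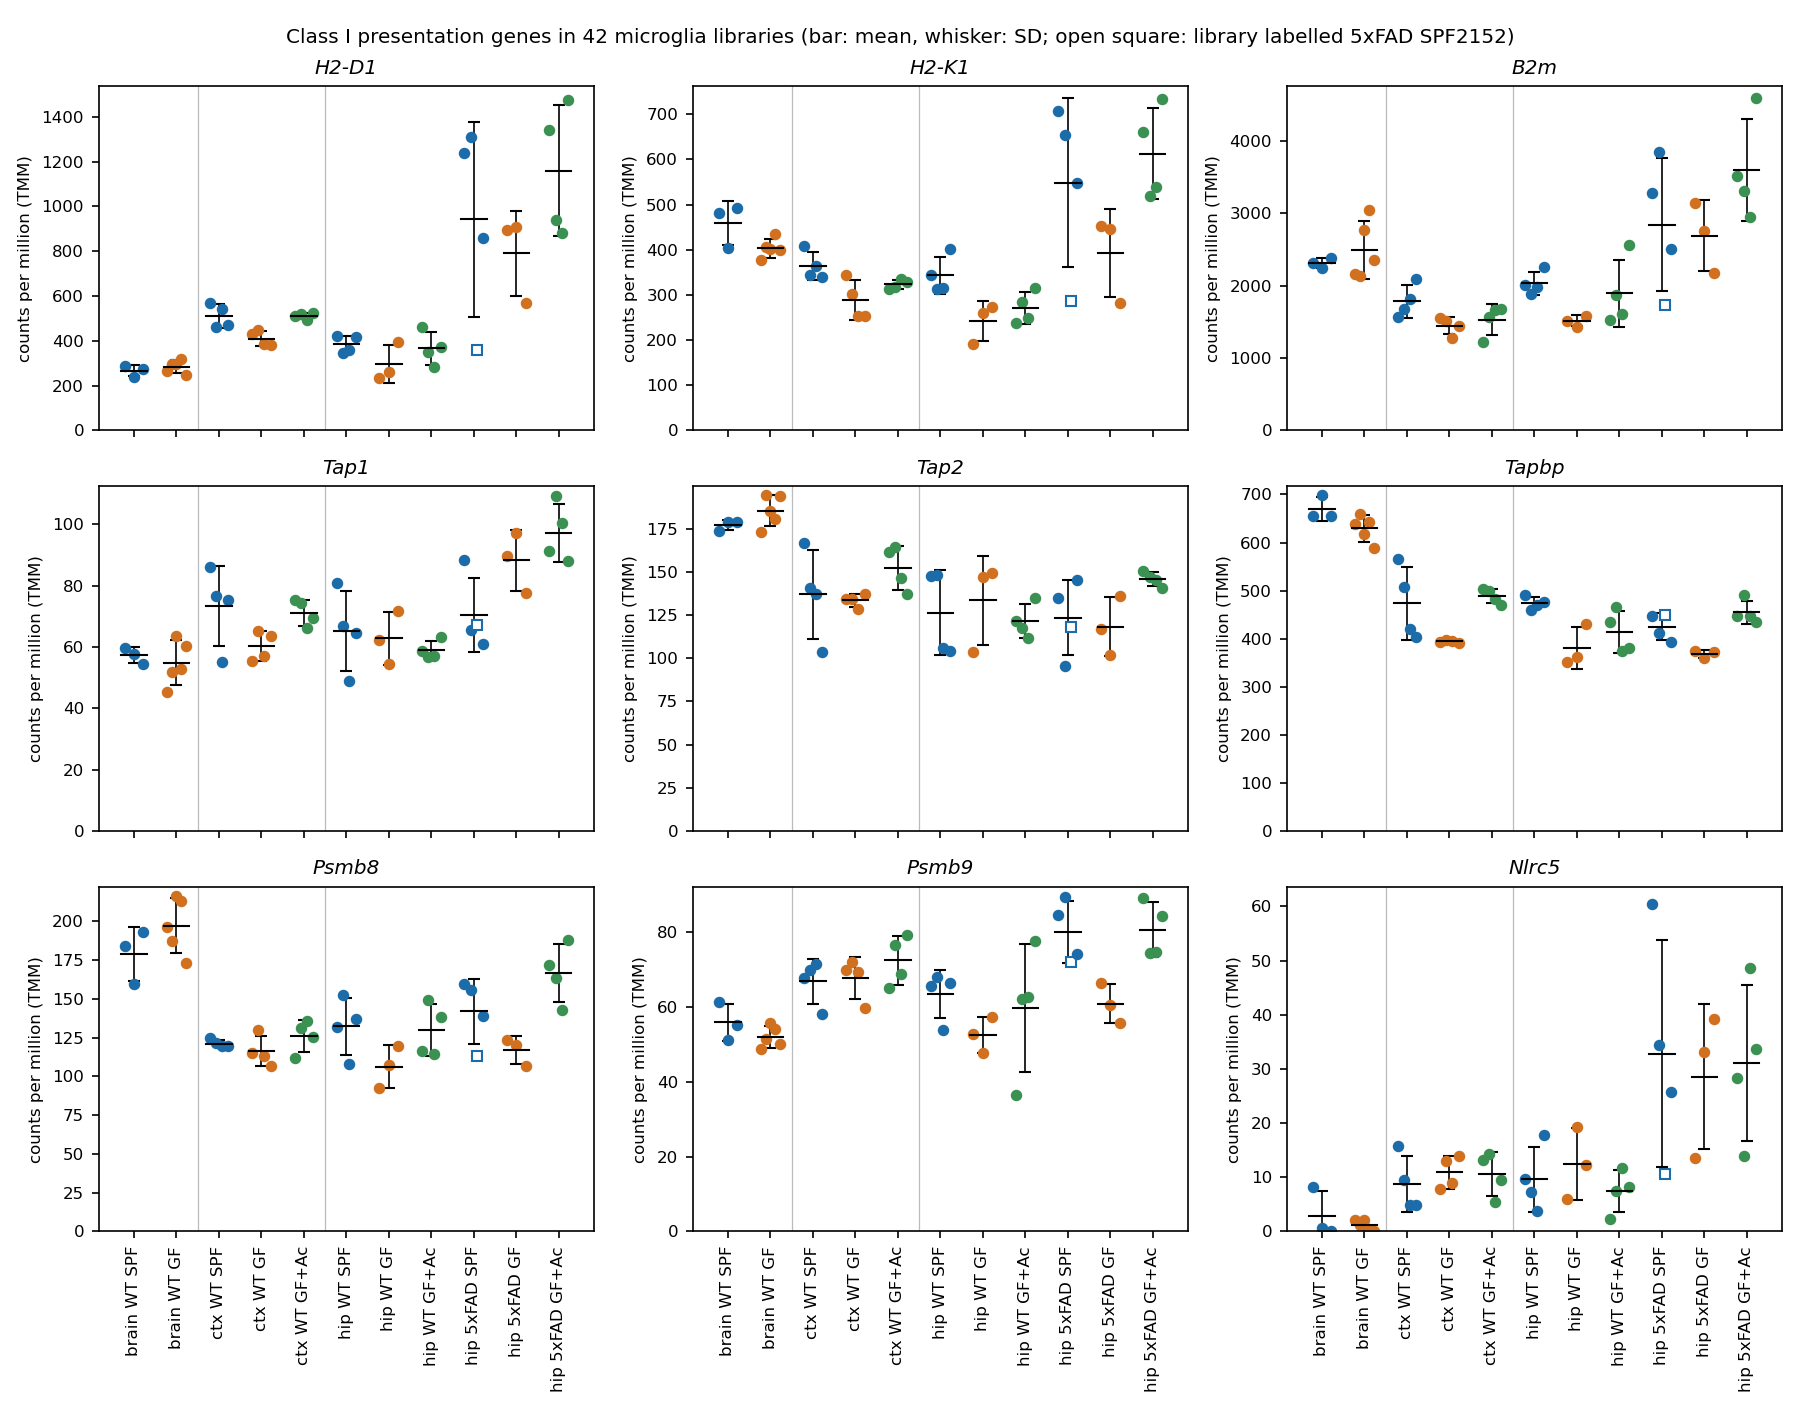
Level of each of the 9 genes (TMM-scaled CPM, linear axes) in all 42 libraries by group; points are libraries, bars are means and whiskers SDs, and the open square is the library labelled 5xFAD SPF2152. Within hippocampus, H2-D1, H2-K1, B2m and Nlrc5 have higher means in 5xFAD than in wild type in each condition, while Tap2 and Tapbp cover nearly the same pooled range in both genotypes; whole-brain libraries were counted in a separate table.

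The first comparison asked how hippocampal microglia of 5xFAD mice differ from wild type within each housing condition. H2-D1 was higher in 5xFAD under all 3 conditions, 2.45-fold in SPF, 2.67-fold in GF and 3.15-fold in GF plus acetate. With all libraries, H2-K1, B2m, Tap1 and Nlrc5 passed edgeR's test under acetate, with folds from 1.64 to 4.2, and not in SPF or GF. Without library SPF2152, H2-K1, B2m and Nlrc5 passed in SPF too, and DESeq2 with all libraries also called H2-K1 in SPF and B2m in GF. The test of whether the genotype difference itself changed with housing called none of the 9 with either tool. Tap2, the partner of Tap1 in the transporter, and Tapbp passed in no condition.

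For H2-D1, which encodes the D-locus heavy chain, wild-type SPF libraries stood at 420.4, 345.1, 359.8 and 415.8 CPM and 5xFAD SPF libraries at 1240, 1310, 357.8 and 859.5 CPM, the third being library SPF2152. In GF mice the wild-type values were 234.9, 259.8 and 395.6 CPM against 893.1, 907.8 and 570.6 CPM in 5xFAD. With acetate they were 461.5, 350.8, 282.6 and 371.6 CPM against 1341, 938.1, 883 and 1474 CPM. Apart from library SPF2152, each 5xFAD library was above each of the 11 wild-type libraries, the nearest pair being 570.6 and 461.5 CPM. In edgeR's quasi-likelihood test with Benjamini-Hochberg adjustment over all 17063 genes, the log2 difference was 1.29 in SPF (SE 0.28, 95% interval 0.71 to 1.87, adjusted p = 0.0305), 1.42 in GF (SE 0.32, adjusted p = 0.036) and 1.65 with acetate (SE 0.28, 95% interval 1.07 to 2.24, adjusted p = 0.00153). Without library SPF2152 the SPF difference was 1.56 (adjusted p = 0.00015). The SPF call did not hold when any of the other 7 SPF libraries was left out, with adjusted p from 0.0648 to 0.141. The GF call was lost without wild-type GF529 (adjusted p = 0.135), wild-type GF530 (0.222), 5xFAD GF526 (0.163) or 5xFAD GF527 (0.165).

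H2-K1 encodes the K-locus heavy chain. Its wild-type values were 344.9, 312.1, 315.5 and 401.7 CPM in SPF, 191.7, 261 and 273.5 CPM in GF, and 236.8, 285.2, 248 and 314.8 CPM with acetate. The 5xFAD values were 706.4, 654.4, 286.8 (library SPF2152) and 546.7 CPM in SPF, 452.6, 445.9 and 281.5 CPM in GF, and 659.9, 518.9, 539.9 and 733.5 CPM with acetate. The groups were separate in GF and with acetate, narrowly in GF where 281.5 CPM in 5xFAD lay next to 273.5 CPM in wild type. Over all genes, 9.11% were higher without overlap in GF and 5.59% with acetate. The log2 difference was 1.17 with acetate (SE 0.21, adjusted p = 0.00187, 2.25-fold), 0.68 in SPF (adjusted p = 0.158) and 0.70 in GF (adjusted p = 0.21). Without library SPF2152 the SPF difference was 0.89 and passed (adjusted p = 0.00389).

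B2m, the light chain shared by all class I molecules, was likewise higher in 5xFAD with acetate. There, wild-type libraries stood at 1526, 1870, 1616 and 2560 CPM and 5xFAD libraries at 3518, 3308, 2954 and 4591 CPM. In GF mice the values were 1518, 1435 and 1588 CPM against 3139, 2761 and 2169 CPM, and in SPF mice 2011, 1885, 1982 and 2258 CPM against 3286, 3845, 1737 (library SPF2152) and 2507 CPM. Groups did not overlap with acetate or in GF, where 5.59% and 9.11% of all genes were higher without overlap. In SPF they overlapped through library SPF2152 alone. The log2 difference was 0.92 with acetate (SE 0.19, adjusted p = 0.0075, 1.89-fold), 0.83 in GF (adjusted p = 0.0769) and 0.49 in SPF (adjusted p = 0.332; 0.66 with adjusted p = 0.0377 without library SPF2152).

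Among the transporter genes, Tap1 differed with acetate, where wild-type libraries were at 58.7, 56.61, 57.02 and 63.09 CPM and 5xFAD libraries at 91.32, 109.1, 100.3 and 87.87 CPM. The gap between the groups, from 63.09 to 87.87 CPM, was wide beside the spread in wild type and close in size to that in 5xFAD. The log2 difference was 0.72 (SE 0.14, adjusted p = 0.00615, 1.64-fold). In GF mice Tap1 was 62.31, 54.47 and 71.73 CPM against 89.68, 97.12 and 77.66 CPM, a difference of 0.49 that missed the threshold (adjusted p = 0.213). In SPF mice the groups overlapped, at 80.87, 66.76, 48.92 and 64.53 CPM against 88.22, 65.53, 67.15 and 60.81 CPM (log2 0.11, adjusted p = 0.906). The change in the Tap1 genotype difference from SPF to acetate was 0.60 on the log2 scale (95% interval 0.18 to 1.02, adjusted p = 0.552 in edgeR's quasi-likelihood test), so a difference between conditions was not established.

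Pooled over the 3 conditions, Tap2 and Tapbp covered nearly the same range in both genotypes, while the groups separated in 1 condition for each. Over all conditions Tap2 ran from 103.7 CPM through a median of 121.5 to 149.5 CPM in the 11 wild-type libraries and from 95.56 through 135.9 to 150.3 CPM in the 11 5xFAD libraries. Tapbp ran from 350.9 through 435 to 490 CPM and from 359.4 through 433.7 to 490 CPM. With acetate Tap2 was 121.5, 117.8, 111.8 and 134.9 CPM in wild type and 150.3, 147, 145.3 and 140.8 CPM in 5xFAD, all higher (log2 0.26, 95% interval -0.04 to 0.56, adjusted p = 0.445). In SPF mice Tapbp was 490, 459.6, 470.1 and 476.8 CPM in wild type and 447.8, 410.8, 449.9 (library SPF2152) and 392.1 CPM in 5xFAD, all lower (log2 -0.15, 95% interval -0.32 to 0.02, adjusted p = 0.581). Groups separated in this way for 5.59% of all genes higher with acetate and for 2.68% lower in SPF. Averaged over the 3 conditions, a contrast added after the data were seen, the 95% interval of the log2 difference was -0.16 to 0.20 for Tap2 and -0.13 to 0.08 for Tapbp.

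Psmb8 and Psmb9, the inducible catalytic subunits of the immunoproteasome, differed by less than the heavy chains. Psmb9 with acetate stood at 36.3 (library GFA518, with few genes detected), 61.99, 62.5 and 77.64 CPM in wild type. In 5xFAD it stood at 89.19, 74.36, 74.53 and 84.35 CPM, with 1 wild-type library inside this range. In SPF mice it stood at 65.6, 67.95, 53.8 and 66.38 CPM against 84.65, 89.38, 72.05 (library SPF2152) and 74.07 CPM. These groups did not overlap, beside 2.43% of all genes higher without overlap. Neither difference passed (log2 0.43, adjusted p = 0.183 and log2 0.34, adjusted p = 0.471). Psmb8 with acetate was 116.7, 149.2, 114.6 and 138.6 CPM against 171.9, 163.7, 142.7 and 187.9 CPM, a log2 difference of 0.36 (95% interval 0.09 to 0.62, adjusted p = 0.169).

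Nlrc5, the transactivator, was low and the most variable of the 9. Wild-type libraries stood at 9.671, 7.274, 3.768 and 17.86 CPM in SPF and 5.891, 19.26 and 12.33 CPM in GF. With acetate they stood at 2.235 (library GFA518, with few genes detected), 7.496, 11.72 and 8.144 CPM. The 5xFAD libraries stood at 60.51, 34.44, 10.63 (library SPF2152) and 25.72 CPM in SPF, 13.49, 33.04 and 39.17 CPM in GF and 28.38, 13.85, 48.56 and 33.59 CPM with acetate. Only the acetate groups were free of overlap, by 11.72 against 13.85 CPM. The log2 difference there was 2.07 (SE 0.55, 95% interval 0.93 to 3.21, adjusted p = 0.0429, 4.2-fold), and the call was lost when any of the 8 acetate libraries except 5xFAD GFA520 was left out (adjusted p up to 0.13, without 5xFAD GFA521). In SPF it was 1.81 (adjusted p = 0.164; 2.11 with adjusted p = 0.0428 without library SPF2152) and in GF 1.20 (adjusted p = 0.51).

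By count, 1 of the 9 was called higher in SPF, where 0.363% of all genes were called higher and 0.205% lower. Without library SPF2152 the count was 4 of 9, beside 1.18% of all genes called higher. In GF 1 of 9 was called higher, beside 0.557% of genes higher and 0.199% lower. With acetate 5 of 9 were called higher, beside 1.83% higher and 0.674% lower. None of the 9 was called lower by edgeR or DESeq2, and at an unadjusted p under 0.05 the edgeR test had 5, 4 and 7 members higher and 0 lower in SPF, GF and acetate. The shares of all genes at that level, in either direction, were 10.2%, 10.6% and 14.3%. Groups separated with 5xFAD higher for 1, 4 and 6 of the 9, beside 2.43%, 9.11% and 5.59% of all genes. They separated with 5xFAD lower for 1 of the 9 in SPF, beside 2.68% of all genes. Averaged over conditions, 6 of 9 were called higher, namely H2-D1 (log2 1.45, adjusted p = 6.72e-06), Nlrc5 (1.69, adjusted p = 0.00194), H2-K1 (0.85, adjusted p = 7.87e-05), B2m (0.75, adjusted p = 0.000147), Tap1 (0.44, adjusted p = 0.00209) and Psmb9 (0.33, adjusted p = 0.0407). The Psmb9 call was lost when any of wild-type SPF 3, GF529, GF530 or GFA523, or of 5xFAD SPF2140, SPF2142, GF526, GF527, GFA519 or GFA522, was left out (adjusted p from 0.052 to 0.0942). In that contrast 4.2% of all genes were called higher and 2.77% lower, and 4.63% higher without library SPF2152, when again 6 of 9 passed. The median log2 difference over the 9 was 0.44, beside 0.002 over all genes.

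**Figure D2:**
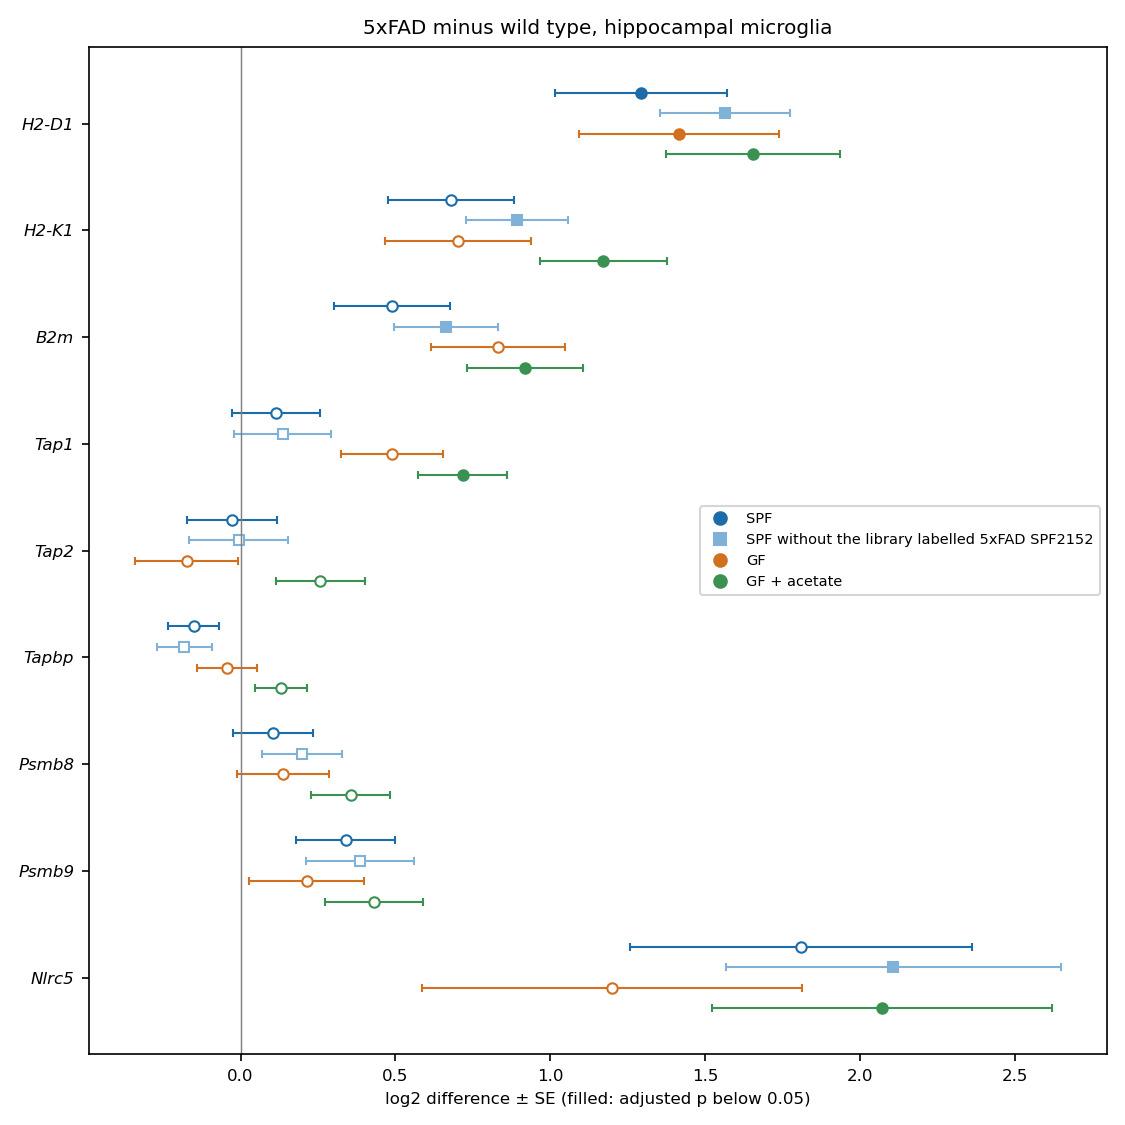
Log2 difference (5xFAD minus wild type, with SE) of each gene in hippocampal microglia under SPF, GF and GF plus acetate; filled points have an adjusted p below 0.05. H2-D1 is filled under all 3 conditions, H2-K1, B2m, Tap1 and Nlrc5 under acetate, and Tap2 and Tapbp are open throughout, from -0.17 (Tap2 in GF) to 0.26 (Tap2 with acetate).

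Whether housing changed the genotype difference was tested by interaction terms. GF against SPF, acetate against GF and acetate against SPF each called 0% of all genes in edgeR with all libraries, with 0, 0 and 2 of the 9 at an unadjusted p under 0.05 (the 2 were Tap1 and Tapbp). The shares of all genes at that level were 5.52%, 5.3% and 6.59%. DESeq2 called 15, 7 and 25 genes, none of them among the 9. Without library SPF2152 edgeR called 1 gene for GF against SPF, not among the 9, and 0 for acetate against SPF.

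H2-D1 rose more than H2-K1, so the balance of the heavy chains differed between genotypes. The ratio of H2-D1 to H2-K1 in RPKM was 1.28 in wild-type SPF hippocampus (range 1.18 to 1.39), 1.39 in GF (1.13 to 1.65) and 1.57 with acetate (1.3 to 2.22). In 5xFAD it was 1.87 in SPF (1.42 to 2.28, the lowest being library SPF2152), 2.29 in GF (2.25 to 2.32) and 2.13 with acetate (1.86 to 2.32). The groups were separate in SPF and GF and overlapped with acetate, where 1 wild-type library, GFA518 with few genes detected, reached 2.22. Averaged over conditions, the log2 ratio was 0.58 higher in 5xFAD (two-sided exact permutation test within condition, p = 0.000143 over 98000 arrangements; 0.62 with p = 8.16e-05 over 49000 arrangements without library SPF2152). This ratio was chosen after the levels had been seen. Its absolute size rests on exon lengths and on how reads shared by the heavy-chain genes were assigned. Cortical libraries ranged from 1.42 to 1.86, and whole-brain libraries, counted in the other table from younger mice, from 0.64 to 0.84.

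**Figure D3:**
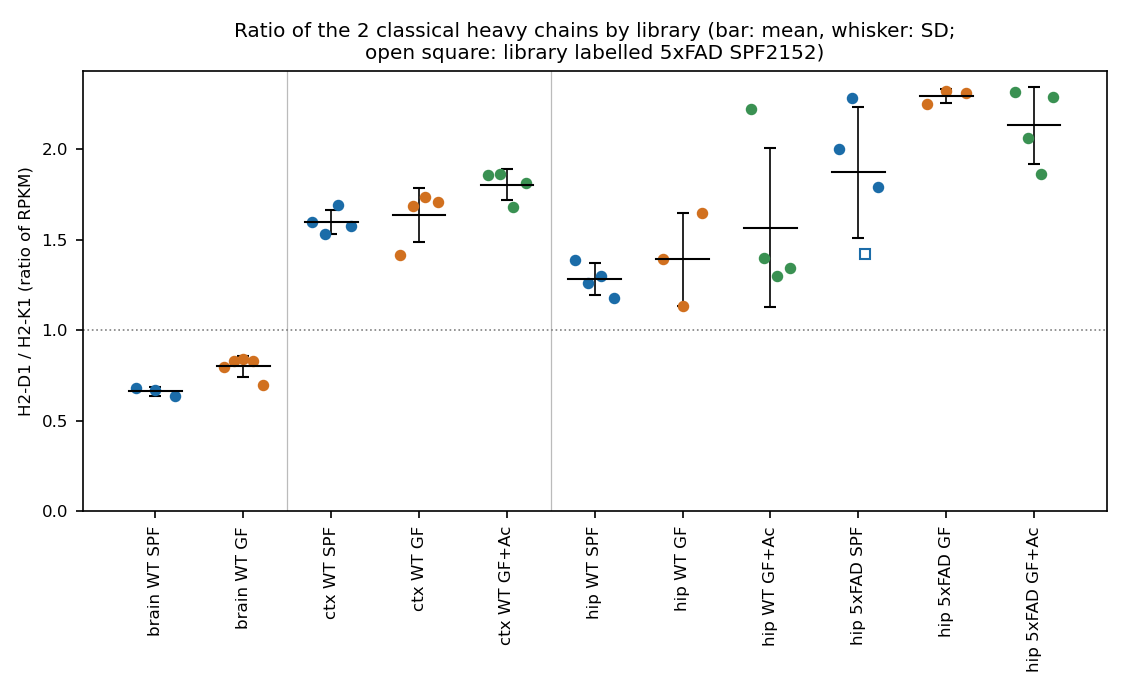
Ratio of H2-D1 to H2-K1 (RPKM, linear axis, dotted line at 1) in each library by group; bars are means, whiskers SDs, and the open square is the library labelled 5xFAD SPF2152. Whole-brain libraries lie below 1, and the 5xFAD GF libraries (2.25 to 2.32) lie above all 3 wild-type GF libraries (1.13 to 1.65).

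Other parts of the pathway were read from gene lists. Of 9 tested other class I heavy chains, 2 were higher in 5xFAD with acetate: H2-T23, which encodes the ligand of CD94 and NKG2 receptors (log2 0.51, adjusted p = 0.0215), and H2-M3, which presents formylated peptides (0.77, adjusted p = 0.0483). Averaged over conditions, H2-Q6 (2.23, adjusted p = 0.0235) and H2-Q7 (2.19, adjusted p = 0.0314) passed as well. Psme1, a subunit of the proteasome activator, was the 1 of 5 other immunoproteasome and activator genes to pass with acetate (0.54, adjusted p = 0.0125). None of 11 core proteasome subunits and none of the 3 constitutive catalytic subunits passed in any of the 3 conditions or in their average, with list medians of -0.02 and 0.01 in the average. Of 9 genes of peptide loading and trimming, 0 passed within a condition with all libraries. Without library SPF2152, Pdia3 (0.37, adjusted p = 0.0375) and Calr (0.42, adjusted p = 0.0379) passed in SPF. With all libraries, Calr (0.26, adjusted p = 0.0104) and Pdia3 (0.19, adjusted p = 0.0342), chaperones of the loading complex, passed in the average.

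Among 19 factors that act on class I promoters, Irf7 (log2 2.54, adjusted p = 0.0152) and Irf9 (0.77, adjusted p = 0.0349) were higher in 5xFAD with acetate. In the average over conditions Irf7 (2.22, adjusted p = 0.000189), Stat2 (0.76, adjusted p = 0.00791) and Irf9 (0.49, adjusted p = 0.0124) were higher. Without library SPF2152, Irf7 (2.80, adjusted p = 0.00504) and Stat2 (1.23, adjusted p = 0.0335) passed in SPF as well. Of 25 genes of the type I interferon response, 13 were higher with acetate, 3 in SPF and 3 in GF, led by Oas1a (4.14, adjusted p = 0.00124) and Ifi27l2a (3.67, adjusted p = 0.00126) with acetate. Without library SPF2152 the SPF count was 9 of 25. Usp18, a brake on interferon signalling that interferon itself induces, was higher with acetate (1.90, adjusted p = 0.0483), and Ifngr1, a chain of the interferon gamma receptor, was lower with acetate (fell by 0.38, adjusted p = 0.0129) and in SPF (fell by 0.36, adjusted p = 0.0487). Lilrb4a, an inhibitory receptor of the family that binds class I molecules, was higher under all 3 conditions (2.75 in SPF, 2.09 in GF, 2.40 with acetate). H2-Ab1, a class II gene, was higher with acetate (2.01, adjusted p = 0.0405). Without library SPF2152, Usp18 (2.34, adjusted p = 0.00769), H2-Ab1 (2.59, adjusted p = 0.00551) and the class II invariant chain Cd74 (2.43, adjusted p = 0.0349) were higher in SPF too. The 3 contrasts use separate libraries.

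Markers of other cells were read beside these differences. With acetate, border-associated macrophage markers summed to between 1.268 and 10.12 CPM in wild type and between 10.94 and 31 CPM in 5xFAD, and 1 of 6 tested was called higher, namely Pf4 (log2 5.59, adjusted p = 0.0201). The endothelial marker Flt1 was also called higher (5.49, adjusted p = 0.00777). In SPF mice the border-associated macrophage sums were 13.98 to 27.34 CPM in wild type and 15.64 to 32.5 CPM in 5xFAD. Microglial markers there summed to between 53370 and 58430 CPM in wild type and between 40500 and 54800 CPM in 5xFAD, with Fcrls called lower (fell by 0.98, adjusted p = 0.0174). The 9 microglial markers summed to between 53710 and 56180 CPM in wild type with acetate and between 46660 and 48700 CPM in 5xFAD, with Cx3cr1 (fell by 0.39, adjusted p = 0.0275) and P2ry12 (fell by 0.76, adjusted p = 0.000241) called lower. In GF mice astrocyte markers summed to between 315.2 and 432.2 CPM in wild type and between 469.1 and 472.9 CPM in 5xFAD. In the average over conditions, Pf4 (4.76, adjusted p = 0.000694), Flt1 (3.62, adjusted p = 0.000567) and the astrocyte gene Gfap (5.805, adjusted p = 0.0322) were called higher. Called lower were the microglial markers Cx3cr1, P2ry12, Sall1 and Tmem119, the oligodendrocyte marker Mobp and the dendritic-cell marker Zbtb46 (adjusted p from 1.91e-05 to 0.0477). The part of these shifts in the class I differences was not tested.

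Across libraries the 9 genes did not all vary together. After subtraction of group means, the correlation over the 34 cortical and hippocampal libraries was 0.867 between H2-D1 and H2-K1 and 0.771 between H2-K1 and B2m. Tap1 and Psmb9, which share their upstream region, had a correlation of 0.167 on the same scale. These values are descriptions, since the libraries share scaling and 11 animals gave 2 libraries each. Against the mean profile of the 9 genes, H2-K1 (0.917), H2-D1 (0.879) and Psmb8 (0.845) lay closest and Tapbp (0.391) and Tap2 (0.362) farthest. The genes most like that profile among 11651 candidates were Pkm (0.892), Gapdh (0.877), Lamp1 (0.872), Ctsz (0.87), Slc16a3 (0.863), Lgals3bp (0.859), Gnas (0.857) and Hexa (0.856), over all 34 libraries with group differences included. With group means removed, these 8 correlations were between 0.61 and 0.728. Pkm and Gapdh are glycolytic enzymes, Slc16a3 exports lactate, and Lamp1, Ctsz and Hexa are lysosomal proteins.

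Within the 10 5xFAD libraries other than SPF2152, correlations with single genes are given as a description, since the genes were picked after values had been seen and the libraries share scaling. Nlrc5 had a correlation of -0.517 with Cst7, whereas B2m had 0.774. Over all 22 hippocampal libraries the same correlations were 0.778 and 0.875, and 0.491 and 0.696 after subtraction of group means, so the negative value for Nlrc5 was not seen on those scales. H2-K1 had 0.863 with Clec7a, a receptor of plaque-associated microglia, and Nlrc5 had -0.131, against 0.832 for Nlrc5 over all 22 libraries and 0.647 with group means removed. The highest values of Nlrc5, 60.51 CPM in library SPF2140 and 48.56 CPM in acetate library GFA521, were in the libraries with the highest Ifit3 (83.17 and 78.35 CPM), an interferon-induced gene. The next highest Nlrc5, 39.17 CPM in library GF531, came with an Ifit3 of 10.28 CPM, the lowest of these 10 libraries.

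The next comparison asked what microbe-free housing did. With edgeR and all libraries, no member passed in any of the 4 tissue and genotype settings. H2-D1, H2-K1, B2m and Tapbp had negative log2 differences in the 3 settings of 16-week mice, whereas Nlrc5 and Psmb9 in cortex, Nlrc5 and Tap2 in wild-type hippocampus and Tap1 in 5xFAD hippocampus had positive ones. In whole-brain microglia, where 1.99% of genes were called, 0 of 9 passed with edgeR or DESeq2. Beside 15.3% of all genes, 1 of the 9 had an unadjusted p under 0.05. That gene was H2-K1, at 480.8, 403.7 and 493.2 CPM in SPF and between 376.4 and 435.2 CPM (median 402.4) in GF, a log2 difference of -0.19 (95% interval -0.34 to -0.04, adjusted p = 0.207). Mean whole-brain levels of H2-D1 (283.9 against 266.6 CPM) and B2m (2495 against 2314 CPM) were higher in GF than in SPF. The same held for Psmb8 (197.2 against 178.9 CPM) and Tap2 (185.6 against 177.1 CPM), all with overlapping ranges. The other members had lower means in GF. Nlrc5 was near the detection limit in whole brain, at 8.129, 0.5846 and 0 CPM in SPF and 2.078, 1.161, 2.082, 0.4565 and 0 CPM in GF.

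In cortex 1.71% of genes were called between GF and SPF. Of the 9, 0 passed with edgeR, 5 were lower at an unadjusted p under 0.05 and DESeq2 called 2, H2-D1 and H2-K1. Among all genes, 13.8% had an unadjusted p under 0.05 in either direction and DESeq2 called 627. In 3 members the groups did not overlap, all lower in GF: H2-D1, B2m and Tapbp, beside 3.53% of genes lower without overlap. H2-D1 was 570.7, 461.3, 540.7 and 468.7 CPM in SPF and 428.6, 447.9, 384.8 and 379.8 CPM in GF. The separation of these groups was 461.3 against 447.9 CPM (log2 -0.31, SE 0.09, adjusted p = 0.0893). Tapbp was 565.4, 507, 419.8 and 404 CPM in SPF and 392.2, 398, 395.6 and 391.8 CPM in GF, a tight GF group below a broad SPF group (log2 -0.27, adjusted p = 0.2). B2m was 1562, 1675, 1816 and 2094 CPM in SPF and 1554, 1516, 1281 and 1444 CPM in GF (log2 -0.30, adjusted p = 0.217).

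In wild-type hippocampus, with 0.727% of genes called, 0 of 9 passed with edgeR, 3 were lower at an unadjusted p under 0.05 and DESeq2 called 1. Among all genes, 12.6% had an unadjusted p under 0.05 in either direction and DESeq2 called 442. H2-K1, B2m and Tapbp were lower in GF without overlap, beside 6.23% of all genes. Tapbp was 490, 459.6, 470.1 and 476.8 CPM in SPF and 350.9, 361.4 and 430.4 CPM in GF (log2 -0.30, SE 0.09, adjusted p = 0.129), and it was the member DESeq2 called. The log2 differences of H2-K1 and B2m were -0.49 (adjusted p = 0.366) and -0.41 (adjusted p = 0.412). Beside these values, the microglial markers summed to between 53370 and 58430 CPM in SPF and between 41600 and 43720 CPM in GF hippocampus, and to 51190 to 64960 and 43720 to 49410 CPM in cortex. Border-associated macrophage markers summed to between 13.98 and 27.34 CPM in SPF and between 1.937 and 9.66 CPM in GF hippocampus, and to 20.76 to 35.57 and 8.969 to 11.49 CPM in cortex. Astrocyte markers summed to between 232.8 and 304.1 CPM in SPF and between 315.2 and 432.2 CPM in GF hippocampus. The part of these shifts was not tested.

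In 5xFAD hippocampus, with 1.82% of genes called, 0 of 9 passed with edgeR or DESeq2 and 4 had an unadjusted p under 0.05, of which 3 were lower. Among all genes, 11.9% had an unadjusted p under 0.05 in either direction. Tap1 alone leaned higher in GF (log2 0.34, adjusted p = 0.378), at 89.68, 97.12 and 77.66 CPM against 88.22, 65.53, 67.15 and 60.81 CPM in SPF. Without library SPF2152, H2-K1 passed as lower in GF (fell by 0.68, adjusted p = 0.0478), where 0.971% of all genes were called lower. Beside these values, the astrocyte gene Slc1a3 was higher in GF 5xFAD mice (0.83, adjusted p = 0.00979) and astrocyte markers summed to between 469.1 and 472.9 CPM, against 237.7 to 308.8 CPM in SPF. The microglial markers Cx3cr1 (fell by 0.46, adjusted p = 0.0198), Olfml3 (fell by 0.76, adjusted p = 0.000427) and P2ry12 (fell by 0.45, adjusted p = 0.0458) were lower, and the part of these shifts was not tested. Among genes of peptide loading and trimming, Calr (fell by 0.56, adjusted p = 0.00819) and Pdia3 (fell by 0.50, adjusted p = 0.00775) were lower in GF 5xFAD mice. Canx, the chaperone of newly made heavy chains, was lower in GF wild-type hippocampus (fell by 0.45, adjusted p = 0.0314), and Calr was higher in GF whole brain (0.30, adjusted p = 0.00783). Without library SPF2152, Irf8 (fell by 0.44, adjusted p = 0.043) and Ifi30, a lysosomal thiol reductase (fell by 0.97, adjusted p = 0.0295), were lower in GF 5xFAD mice. The class II gene H2-DMb2 was higher there both with all libraries (1.20, adjusted p = 0.0208) and without library SPF2152 (1.32, adjusted p = 0.0224). Lilrb4a was higher in GF cortex (1.12, SE 0.27, adjusted p = 0.0394), at 11.44 to 19.45 CPM against 4.898 to 9.952 CPM in SPF. In wild-type hippocampus the groups were also separate, at 11.91 to 13.31 against 3.35 to 7.75 CPM, without passing (1.22, adjusted p = 0.17).

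Acetate was compared with GF and with SPF, so these contrasts share the GF or SPF libraries with those above. Of the 9, 0 passed in any of them with edgeR. Against GF, 0.973% of genes were called in wild-type cortex, 0.492% in the hippocampus of wild-type mice and 0.082% in that of 5xFAD mice. Against SPF the shares were 0.364%, 0.123% and 0.0527%. Members at an unadjusted p under 0.05 numbered 2, 0 and 4 against GF, all higher with acetate, and 0, 1 and 1 against SPF. The shares of all genes were 11.3%, 11.7% and 7.54% against GF and 7.03%, 8.03% and 6.72% against SPF. DESeq2 called 1, 0 and 1 members against GF and 0 in each against SPF. Its calls over all genes were 467, 376 and 151 against GF and 136, 87 and 90 against SPF.

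In cortex, H2-D1 with acetate was 509.8, 518.1, 493.9 and 524.3 CPM, each above the 4 GF values and within the SPF range. The log2 difference from GF was 0.32 (SE 0.09, adjusted p = 0.11) and from SPF 0.002 (95% interval -0.19 to 0.19). Tapbp with acetate was 502.5, 499.3, 483.3 and 470.8 CPM, again above the GF range and within that of SPF (log2 0.31 from GF, adjusted p = 0.163). Tap1 was the third gene without overlap, at 75.16, 74.15, 66.16 and 69.26 CPM with acetate and 55.33, 65.12, 57.05 and 63.47 CPM in GF (0.24, adjusted p = 0.503). Over all genes, 4.88% were higher with acetate without overlap. H2-K1 with acetate was 312.6 to 334.9 CPM, below all SPF values (338.7 to 407.5 CPM), beside 1.83% of genes lower without overlap. Mean B2m was 1532 CPM with acetate, 1449 CPM in GF and 1787 CPM in SPF. Microglial markers summed to between 54210 and 59380 CPM with acetate, above the GF range, and astrocyte markers to between 232.2 and 329.3 CPM against 354.1 to 469 CPM in GF. The part of these shifts was not tested.

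In 5xFAD hippocampus all 9 log2 differences between acetate and GF were positive, with a median of 0.39 beside 0.011 over all genes. H2-K1, Tap2, Tapbp, Psmb8 and Psmb9 did not overlap, beside 6.62% of all genes higher without overlap. Psmb8, called by DESeq2, was 123.7, 120.5 and 106.6 CPM in GF and 171.9, 163.7, 142.7 and 187.9 CPM with acetate. All 4 acetate values lay above all 3 GF values (log2 0.49, SE 0.14, 95% interval 0.21 to 0.78, adjusted p = 0.219). H2-K1 differed by 0.62 (adjusted p = 0.421) and Tapbp by 0.28 (adjusted p = 0.316). The microglial markers summed to between 39880 and 41180 CPM in GF and between 46660 and 48700 CPM with acetate. Astrocyte markers summed to between 469.1 and 472.9 CPM in GF and between 229.3 and 344.4 CPM with acetate, and border-associated macrophage markers to 3.833 to 10.42 and 10.94 to 31 CPM. The part of these shifts was not tested. Irf2, a factor that binds class I promoters, was lower with acetate in 5xFAD mice (fell by 0.58, adjusted p = 0.0431). Calr rose with acetate in cortex (0.47, adjusted p = 0.0228) and Pdia3 in wild-type hippocampus (0.43, adjusted p = 0.0485).

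**Figure D4:**
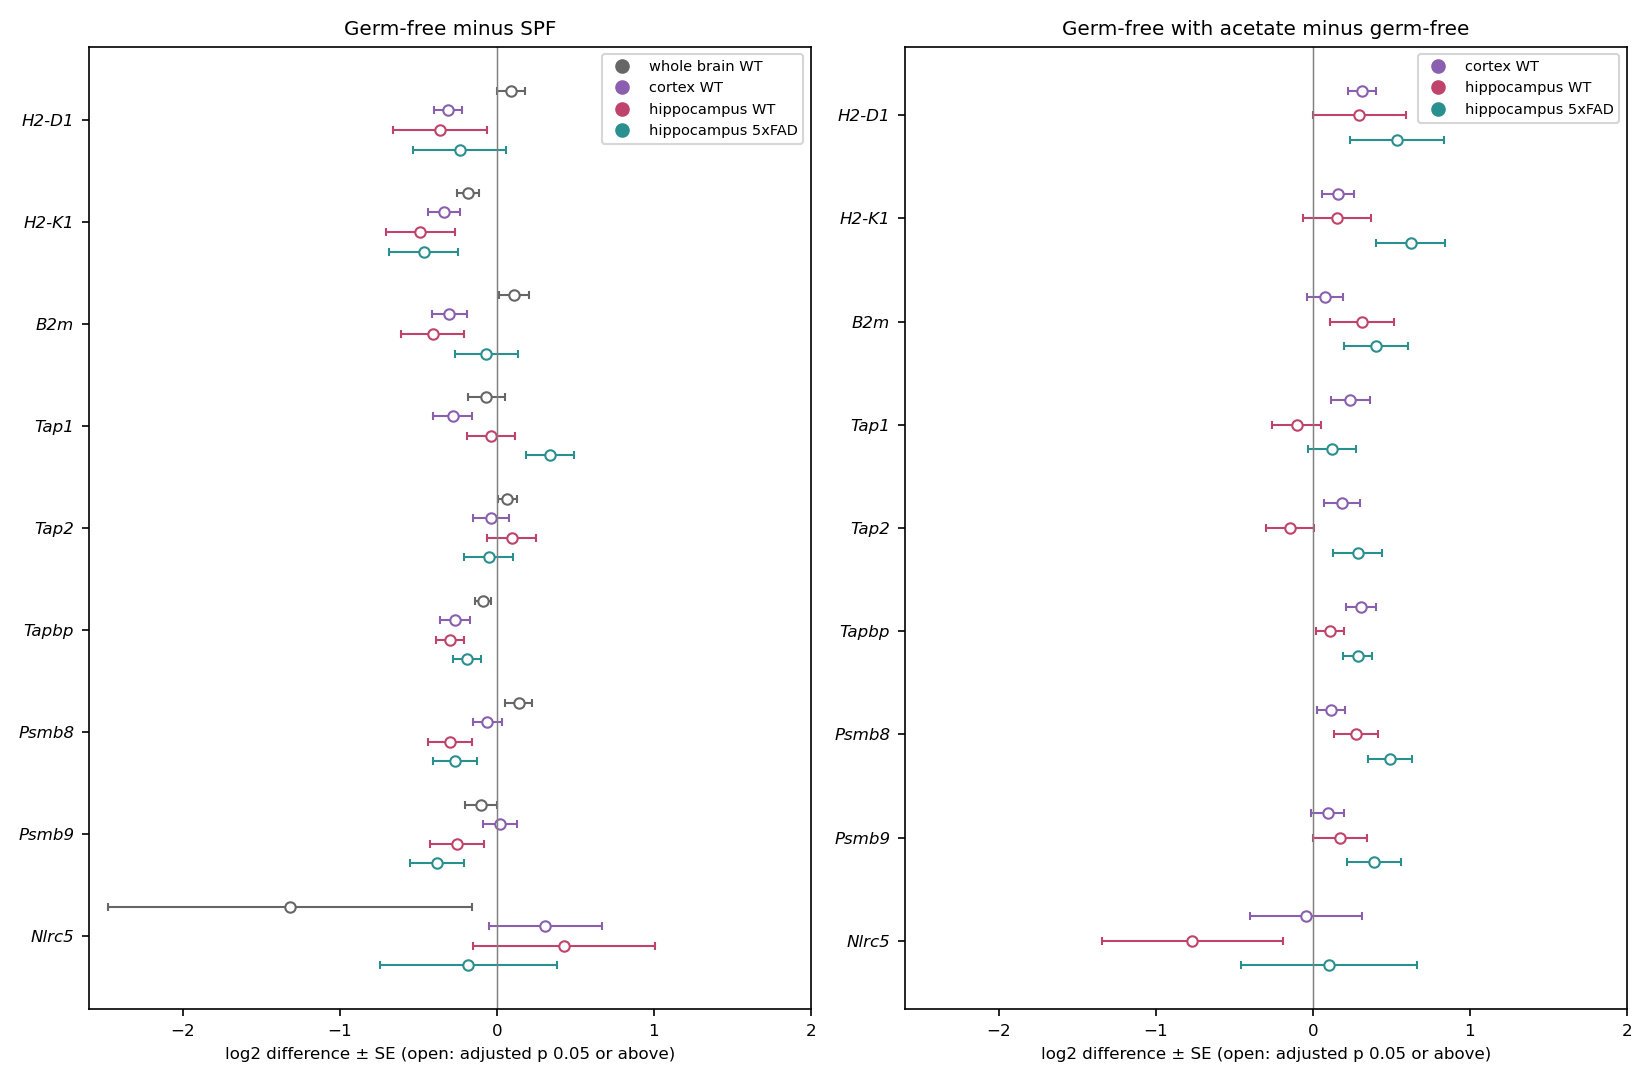
Log2 differences with SE of the 9 genes between housing conditions, by tissue and genotype; open points have an adjusted p of 0.05 or above. Every point is open; in 5xFAD hippocampus all 9 acetate-minus-GF differences are above 0, with a median of 0.39.

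Regions were compared within 11 wild-type animals, paired by the number in the titles, with the animal as a block. Averaged over housing, a contrast added after the data were seen, H2-D1 was lower in hippocampus than in cortex and B2m was higher. H2-D1 was lower in 10 of 11 animals, with paired values such as 420.4 and 570.7 CPM (hippocampus and cortex) in SPF animal 1, 234.9 and 447.9 CPM in animal GF529 and 461.5 and 509.8 CPM in acetate animal GFA518. The exception was animal GF532, with 395.6 and 379.8 CPM. The log2 difference was -0.46 (SE 0.08, 95% interval -0.63 to -0.29, adjusted p = 0.00207, 1.38-fold lower), and the call held without the animal block. B2m was higher in 10 of 11 animals, all but GFA524, by a log2 difference of 0.19 (SE 0.05, adjusted p = 0.0224, 1.14-fold), a call that was lost without the animal block (adjusted p = 0.122) and when SPF animal 1, animal GF530 or animal GF532 was left out. Of all 16706 genes, 4.43% were called higher and 8.06% lower in hippocampus.

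Psmb9 and Tap1 were also lower in hippocampus in 10 of 11 animals each, without passing (log2 -0.25, adjusted p = 0.0713 and -0.14, adjusted p = 0.146). H2-K1 was lower in 8 of 11 (-0.17, adjusted p = 0.135). Within single conditions 0 of 9 passed with edgeR, beside 0.718% of genes called in SPF, 0.0359% in GF and 2.38% with acetate. At an unadjusted p under 0.05 there were 2, 1 and 7 members, beside 13.9%, 11.9% and 17.9% of all genes. DESeq2 called 1, 0 and 3 members, beside 914, 509 and 1417 genes in all. The 3 interaction terms between region and housing called 0% of genes in edgeR, with 0 members at an unadjusted p under 0.05, and 13, 2 and 0 genes in DESeq2, none of them among the 9. The shares of all genes at that unadjusted level were 5.39%, 4.38% and 4.38%. In the average, 7 of 11 core proteasome subunits were higher in hippocampus, among them Psma5 (0.46, adjusted p = 0.00556), while Jak1 (fell by 0.49, adjusted p = 0.000168) was lower. Factors that act on class I promoters went both ways, with Irf1 lower (fell by 0.26, adjusted p = 0.0183) and Irf2 higher (0.20, adjusted p = 0.0195). Beside these values, the microglial markers Csf1r (fell by 0.39, adjusted p = 6.28e-05) and Tmem119 (fell by 0.30, adjusted p = 0.00139) and the border-associated macrophage marker Mrc1 (fell by 1.38, adjusted p = 0.0341) were lower in hippocampus, and their part was not tested.

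**Figure D5:**
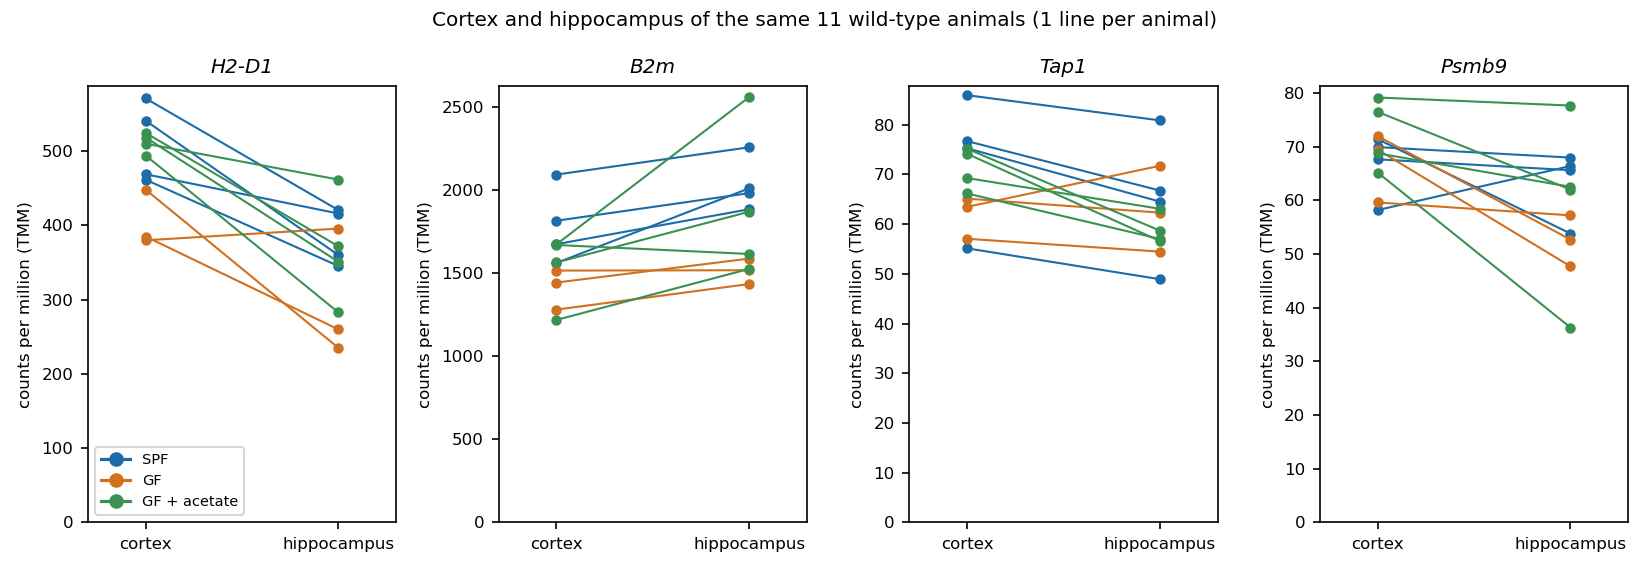
Levels (TMM-scaled CPM, axes from 0) in cortex and hippocampus of 11 wild-type animals paired by the number in the titles, 1 line per animal, colored by housing. H2-D1 falls from cortex to hippocampus in 10 of 11 animals and B2m rises in 10 of 11.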

How the data were processed

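RNA was measured in 42 libraries of sorted microglia in 11 groups taken from the labels. The authors deposited raw read counts per gene. The submitters' processing notes name STAR 2.5.2b and featureCounts 1.5.1 as tools and GRCh38 as the build, although the genes are mouse, so positions and exon lengths were taken from GENCODE M21 (GRCm38) and promoters from RefSeq (GRCm38.p6). Counts of 42 columns matched by name to samples were tested by edgeR 4.0.16 under R 4.3.3 (TMM scaling, filterByExpr with a minimum count of 10, robust quasi-likelihood test, Benjamini-Hochberg adjustment over all genes at 0.05) in 4 fits: whole brain (11332 genes), cortex (15113), hippocampus with both genotypes (17063), and regions with the animal as a block (16706). CPM values are TMM-scaled within each table, and RPKM values divide them by exon length. DESeq2 1.42.0, other filters, other sets of libraries and leaving out each library (53 fits) were alternatives. The scripts were tested on simulated data. Samples of a group were compared as possible duplicates: over 61 pairs, chi-square per degree of freedom was 10.09 to 60.25, so all were counted singly. Deviations of cortex and hippocampus of one animal had correlations of 0.027 to 0.115 over 11 pairs, with 4 over 0.1, and the pairing rests on the animal numbers in the titles, which for SPF are ordinals. Members and gene lists were chosen with earlier results of these data known. Genes were named by rule: all 9 members, up to 4 genes with the smallest p per list and comparison among those called, and the 8 most alike in profile, while plaque-associated genes and the genes set beside members within 5xFAD libraries were chosen after values had been seen. Values of 2 listed genes are not reported here.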

Additional observations from a re-analysis of the deposited data

Results flagged for a closer look

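Of 72 combinations of gene and group with 4 or more libraries, 1 held a library far from the others. Psmb9 was 53.8 CPM in library 3 of the wild-type SPF hippocampus group, while the other 3 libraries lay between 65.6 and 67.95 CPM, a gap of 0.834 of the whole range. About 1 in 20 such groups would show this by chance.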

How the results depend on the processing

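Results for single members, 216 values over 3482 alternative fits, kept their side of the threshold in 3407, lost the call in 44 and gained one in 31. No value that was called in either fit changed sign. Sign changes of values called in neither fit were not counted. The counts of members called that moved were as follows. Under DESeq2 the counts were 2 for GF against SPF in cortex, 1 in wild-type hippocampus, 1 for acetate against GF in cortex, 1 in 5xFAD hippocampus, 2 for 5xFAD against wild type in SPF, 2 in GF, and 1 (SPF) and 3 (acetate) for hippocampus against cortex. Without a low-count filter they were 0 for the genotype in SPF and in GF, and 1, 1 and 2 for the regions in SPF, GF and acetate. With a filter on group means at 5 CPM they were 0 for the genotype in GF and 2 for the regions with acetate. Fitting only the groups compared gave 2 for acetate against GF in cortex, 0 for the genotype in SPF and 2 in GF. Without the libraries with few genes detected, wild-type hippocampal GF530 and GFA518, the genotype counts were 0 in SPF and 0 in GF. They were 0 in SPF without the shallow libraries. Without SPF2152 and SPF2153 of 5xFAD they were 4 in SPF and 2 in GF, and 1 for GF against SPF in 5xFAD. Leaving out each library gave 0 to 4 for the genotype in SPF, 0 to 1 in GF, 4 to 5 with acetate and 5 to 6 on average, 0 to 1 for GF against SPF in 5xFAD and for the regions with acetate, and 1 to 2 for the regions on average. The cause was not tested.

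With the replicate block, the whole-brain count stayed at 0 members, while calls over all genes went from 226 to 46; numbers there do not pair animals (correlations of deviations -0.037 to -0.003). Without the animal block, the average region contrast called 1 member in place of 2. DESeq2 called 638 genes in whole brain, 627 against 259 in cortex (GF against SPF) and 771 against 428 for the genotype with acetate. The shallowest hippocampal library held 5743891 counts, and Nlrc5 counts in hippocampus were as low as 49.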
